A study of Mus musculus with 20 samples.

Results

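Activins are dimers of beta subunits of the transforming growth factor beta superfamily, and inhibins pair a beta subunit with the inhibin alpha subunit. The genes described here are the 4 beta subunit genes Inhba, Inhbb, Inhbc and Inhbe with Fst. Fst encodes follistatin, a secreted protein that binds activins and keeps them from their receptors. Members were the probe sets whose array annotation names 1 of these 5 genes, which gave 8 of the 45101 probe sets and 5 of the 18193 genes with a probe set of their own. They were chosen by their measured signals across the 5 groups of these arrays, so their levels and differences are given as a description and without p-values. RNA came from the whole livers of C57BL/6 males, 8 to 12 weeks old, and was read on 20 Affymetrix mouse arrays. The control group, labelled as not manipulated, had 5 arrays. The series text describes anesthesia and surgery, and the other groups were minor trauma (n = 3), hemorrhagic shock of 1.5 h with severe trauma (n = 4, called shock here), the same shock and trauma followed by 1 h of resuscitation (n = 4), and the same followed by 4.5 h of resuscitation (n = 4). All 5 groups are of the same strain and sex. None of the labels names anesthesia alone or a control matched in time to the resuscitation, so those cannot be told apart from injury here. The labels number the replicates and do not say how animals relate to arrays beyond that, so the p-values given below for other genes measure the spread between these arrays.

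Activins signal through paired type I and type II serine kinase receptors to the transcription factors Smad2 and Smad3, and some activins and bone morphogenetic proteins to Smad1 and Smad5. Hepatocytes are the main known source of the subunits encoded by Inhbc and Inhbe, which lie side by side in the genome. Inhba and Inhbb are made by many cell types, and activin A is known as a brake on hepatocyte growth, while activin B is known to rise in inflamed liver and to act on the iron hormone hepcidin. Follistatin is also released by liver, and it is known to follow the balance of glucagon and insulin.

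In the RefSeq annotation of GRCm38.p6, Inhbe and Inhbc were neighbours on chromosome 10 with 0 genes between them, Inhba and Fst lay on chromosome 13 and Inhbb on chromosome 1. RefSeq promoter windows of 300 bases, from 250 bases before to 50 bases after the start, were found for 4 of the 5 members, all but Fst. The windows of the neighbours Inhbe (chr10:127351799-127352098, minus strand) and Inhbc (chr10:127370499-127370798, minus strand) are shown because these genes had different courses, written 5′ to 3′ on the gene's strand, with the only motif match in capitals.
Inhbe promoter: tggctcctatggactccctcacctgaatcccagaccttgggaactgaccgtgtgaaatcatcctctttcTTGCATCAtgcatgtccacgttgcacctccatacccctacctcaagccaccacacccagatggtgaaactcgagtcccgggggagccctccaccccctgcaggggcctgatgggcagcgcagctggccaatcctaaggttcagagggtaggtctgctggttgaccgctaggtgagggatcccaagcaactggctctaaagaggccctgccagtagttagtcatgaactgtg
Inhbc promoter: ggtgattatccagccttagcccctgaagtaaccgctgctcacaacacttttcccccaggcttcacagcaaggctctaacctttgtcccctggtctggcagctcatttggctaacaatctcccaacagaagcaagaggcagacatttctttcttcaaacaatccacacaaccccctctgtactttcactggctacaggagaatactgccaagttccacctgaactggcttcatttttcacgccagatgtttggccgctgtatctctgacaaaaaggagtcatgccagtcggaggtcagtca
The capitals mark TTGCATCA, the reverse complement of TGATGCAA, a core at which C/EBP and ATF stress factors can bind as a pair, and the match began 181 bases upstream of the Inhbe start. A match to TGATGCAA on either strand was present in 0.895% of 32851 RefSeq promoter windows of the same length. The other motifs searched on both strands were TGACGTCA (1.79% of windows), TGANTCA (7.81%), GTAAACA (3.65%), TTCNNNGAA (8.3%) and the NF-kB site (0.411%), and none of them lay in the 4 windows. The Inhbc, Inhbb and Inhba windows held no match to any of the 6 motifs, which says only that these letters are not in these windows. GC content was 57.3% in the Inhbe window, 49.7% for Inhbc, 64.3% for Inhbb and 47.7% for Inhba, beside a median of 52.7% over all windows.

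Levels below are log2 values of the deposited array signal plus a pseudocount of 6, quantile normalized over the 20 arrays, and each array's median was then 4.60. A probe set was kept when it lay above its own array's median on at least 3 arrays, and a gene was represented by its brightest kept probe set. All 5 members passed, through 7 of their 8 probe sets, among 12832 genes tested. The livers carried hepatocyte markers at high levels: the 6 measured of 7 markers, albumin and transthyretin among them, stood at or above the 99.5th percentile on every array. Their summed signal lay between 50300 and 55100 over all groups. Quantile normalization leaves genes ranked this high little room to differ between arrays. Control array 5 correlated best with minor trauma array 2 (r = 0.983) rather than with another control. Minor trauma array 3 had the lowest best correlation of the 20 arrays (r = 0.95, with minor trauma array 1). The signal of the poly-A spike-in transcript dap split the arrays into sets of 10 and 10 that crossed all groups. It was highest, at 2080, on minor trauma array 3. Member differences from control are therefore also given without control array 5, as are the pathway calls that leaving it out changed. The median difference of all genes tested lay between -0.09 and 0 in each comparison of groups.

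The 5 members took different courses. Inhbe was below control at shock and in both resuscitation groups. On its brighter probe set Inhbb was above control in every injured group and highest at 4.5 h. The second Inhbb probe set overlapped control after minor trauma and at shock, and its 4.5 h mean was not above 1 h (-0.07 ± 0.36). Fst had its highest mean at 1 h, Inhbc was low only on the 4.5 h arrays, and Inhba overlapped control in every group. These are descriptions of the levels that chose the members.

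**Figure D1:**
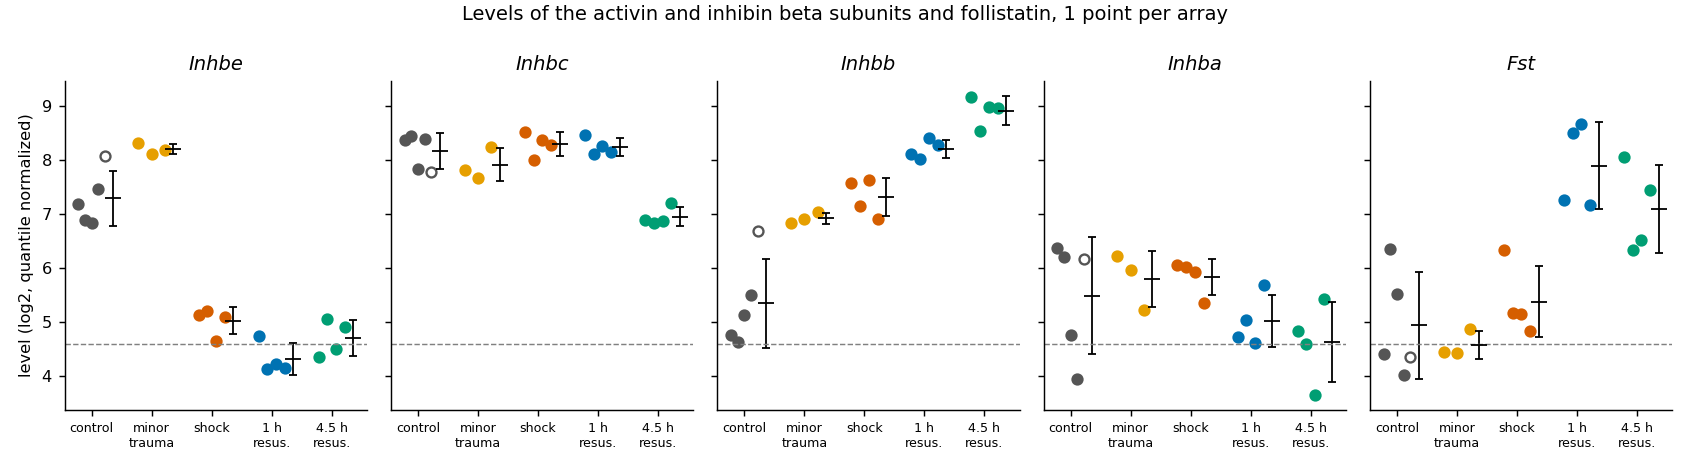
Level of the brightest kept probe set of each member on each array (log2, quantile normalized, 1 point per array) in the 5 groups. The group mean and SD are a bar beside the points, control array 5 is an open circle and the array median of 4.60 a dashed line. Inhbe reads 8.11 to 8.32 on minor trauma arrays and 4.65 to 5.21 on shock arrays, while Inhbb reads 8.53 to 9.17 on the 4.5 h arrays.

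Inhbe encodes the beta E subunit, a liver-secreted protein whose human counterpart is tied by genetics to body fat distribution. Its level was 7.18, 6.88, 6.83, 7.46 and 8.08 on the control arrays, and 8.32, 8.11 and 8.18 on the minor trauma arrays. The shock arrays read 5.14, 5.21, 4.65 and 5.10, the 1 h arrays 4.74, 4.13, 4.22 and 4.16, and the 4.5 h arrays 4.35, 5.06, 4.51 and 4.92. Every array with shock lay below every control and minor trauma array, every minor trauma array lay above every control array, and control array 5 was the highest control. At 1 h only 1 of the 4 arrays read above its array median, and at 4.5 h 2 of 4. The lowest Inhbe levels thus lay at or under the middle of the array.

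Inhbe stood 1.89-fold above control after minor trauma, a log2 difference of 0.91 ± 0.24 (standard error). All minor trauma arrays lay above all control arrays for 3.77% of the genes tested. At shock Inhbe was 4.79-fold below control (-2.26 ± 0.22, n = 4 against 5), and 4.59% of genes tested lay without overlap below control there. Against minor trauma, the comparison that also carries surgery on both sides, the shock level was 9.04-fold lower (-3.18 ± 0.25), where 12.7% of genes lay below without overlap. Inhbe was 7.85-fold below control at 1 h (-2.97 ± 0.22) and 5.96-fold at 4.5 h (-2.58 ± 0.22), beside 7.64% and 18.7% of genes below without overlap. The order of the group means was minor trauma, control, shock, 4.5 h and 1 h, and the last 3 groups overlapped their neighbours: 1 h was 0.71 ± 0.23 below shock and 4.5 h was 0.40 ± 0.23 above 1 h.

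Without control array 5 the control mean of Inhbe was 7.09 ± 0.29 (SD) instead of 7.29 ± 0.51, and the differences from control became 1.11 after minor trauma, -2.06 at shock, -2.77 at 1 h and -2.38 at 4.5 h. Within the set of arrays with the spike-in they were 1.07, -2.21, -2.93 and -2.43, and within the set without it 0.75, -2.26, -2.97 and -2.69. At shock the Inhbe difference within either set was close to that over all arrays. In whole liver, fewer cells of a type and less RNA per cell cannot be told apart. Hepatocyte markers gave no calls at shock or 1 h and 1 lower call at 4.5 h among 6 tested. These markers ranked near the top of every array, where quantile normalization leaves little room for a difference. Whether hepatocyte content changed was therefore not tested by them.

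Inhbb encodes the beta B subunit, the building block of activin B. Its brighter probe set, 1426858_at, read 4.77, 4.63, 5.14, 5.51 and 6.69 on the control arrays, 6.83, 6.91 and 7.03 after minor trauma and 7.58, 7.15, 7.62 and 6.90 at shock. It read 8.10, 8.02, 8.40 and 8.28 at 1 h and 9.17, 8.53, 8.97 and 8.96 at 4.5 h. No injured array overlapped a control array, the 1 h arrays lay above all shock arrays and the 4.5 h arrays above all 1 h arrays. Minor trauma and shock overlapped.

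On this probe set Inhbb was 2.98-fold above control after minor trauma (log2 difference 1.57 ± 0.31, beside 3.77% of genes above without overlap) and 3.91-fold at shock (1.97 ± 0.28), where 3.09% of genes lay above control without overlap. It was 7.21-fold above control at 1 h (2.85 ± 0.28, beside 4.45% of genes above without overlap) and 11.8-fold at 4.5 h (3.56 ± 0.28, beside 12.1%). Shock exceeded minor trauma by 0.39 ± 0.32, 1 h exceeded shock by 0.89 ± 0.30, and 4.5 h exceeded 1 h by 0.71 ± 0.30. For 1 h against shock 3.73% of genes lay above without overlap, and for 4.5 h against 1 h 16.1%. The highest control, array 5 at 6.69, is also the array that resembled minor trauma. Without it the control mean was 5.01 ± 0.40 (SD) instead of 5.35 ± 0.82, and the 4 differences from control were 1.91, 2.30, 3.18 and 3.89.

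The second Inhbb probe set, 1426859_at, was dimmer and showed a smaller and flatter course. It read 4.85, 3.48, 5, 5.55 and 5.25 in control, 5.35, 5.73 and 5.55 after minor trauma, 5.99, 4.40, 5.90 and 4.81 at shock, 6.11, 5.84, 6.21 and 6.63 at 1 h and 5.74, 6.26, 6.21 and 6.28 at 4.5 h. The differences from control were 1.37 ± 0.35 at 1 h (2.58-fold) and 1.3 ± 0.35 at 4.5 h (2.46-fold), both without overlap. Of all genes tested, 4.45% lay above control without overlap at 1 h and 12.1% at 4.5 h. Minor trauma (0.71 ± 0.38) and shock (0.45 ± 0.35) overlapped control. The step from 1 h to 4.5 h on the brighter probe set was not present here, at -0.07 ± 0.36. The probe sets, which share arrays and scaling, had r = 0.77 across the 20 arrays. With the mean of both probe sets in place of the brighter one, the Inhbb differences from control were 1.21 at shock, 2.11 at 1 h and 2.43 at 4.5 h.

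**Figure D2:**
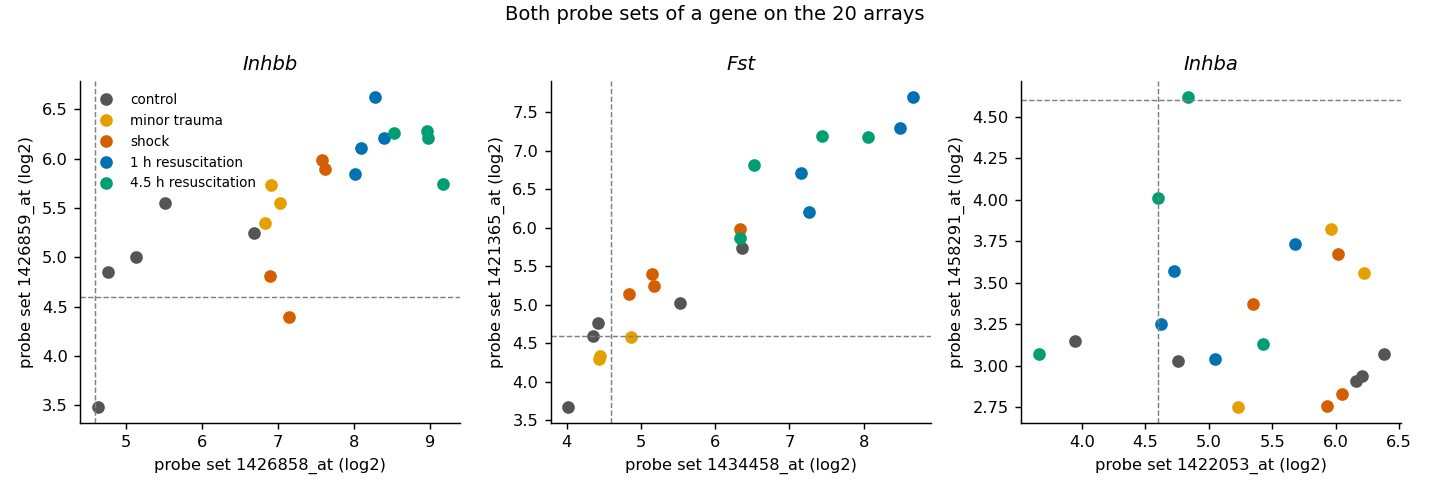
Level (log2) on 1 probe set against the other probe set of the same gene for Inhbb, Fst and Inhba, 1 point per array, coloured by group, with dashed lines at the array median of 4.60. Fst points lie along a line (r = 0.96), Inhbb points spread more widely (r = 0.77), and the second Inhba probe set lies above the median on 1 of 20 arrays.

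Neutrophil markers moved with Inhbb. The summed signal of that list was 67.8 to 363 in control, 228 to 528 after minor trauma, 476 to 2280 at shock, 2600 to 4100 at 1 h and 3940 to 4420 at 4.5 h. Of 7 neutrophil markers 5 were tested. All 5 were called higher than control by limma at shock, 1 h and 4.5 h, with 2 of 5 after minor trauma. Of all genes tested limma called 3.11% at shock, 9.91% at 1 h, 38.9% at 4.5 h and 3.44% after minor trauma. S100a8, a gene of the neutrophil list, had r = 0.96 with Inhbb over the 20 arrays. The part of neutrophils in the Inhbb levels was not tested.

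Fst encodes follistatin, the activin-binding antagonist. On probe set 1434458_at it read 4.42, 6.36, 5.53, 4.02 and 4.36 in control, 4.45, 4.43 and 4.87 after minor trauma, and 6.34, 5.18, 5.15 and 4.84 at shock. At 1 h it read 7.26, 8.49, 8.67 and 7.16, and at 4.5 h 8.06, 6.33, 6.52 and 7.44. All 1 h arrays lay above all arrays without resuscitation, whereas 1 of the 4.5 h arrays (6.33) lay just below the highest control (6.36). Follistatin message was near the array median before resuscitation: 2 of 5 control arrays and 1 of 3 minor trauma arrays read above it, and all 4 shock arrays did.

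Fst was 7.75-fold above control at 1 h (2.95 ± 0.45) and 5.72-fold above shock (2.52 ± 0.48), both without overlap, beside 4.45% and 3.73% of all genes tested. At 4.5 h it was 4.43-fold above control (2.15 ± 0.45), with the overlap just described. After minor trauma (-0.36 ± 0.49) and at shock (0.44 ± 0.45) the arrays overlapped control, and the 4.5 h arrays overlapped the 1 h arrays (-0.81 ± 0.48). Shock exceeded minor trauma by 0.80 ± 0.52, with overlap. The second probe set, 1421365_at, gave 4.66-fold at 1 h (2.22 ± 0.35), 4.02-fold at 4.5 h (2.01 ± 0.35) and 2.90-fold for 1 h above shock (1.54 ± 0.37), all without overlap, beside 12.1% of genes above control without overlap at 4.5 h and the shares just given. It read 4.76, 5.73, 5.02, 3.67 and 4.60 in control, 4.33, 4.29 and 4.58 after minor trauma and 5.98, 5.24, 5.40 and 5.14 at shock. At 1 h it read 6.20, 7.29, 7.70 and 6.71, and at 4.5 h 7.18, 5.86, 6.81 and 7.19. On this probe set shock exceeded minor trauma by 1.04 ± 0.40, while minor trauma (-0.36 ± 0.38) and shock (0.68 ± 0.35) each overlapped control. Both probe sets placed every 1 h array above every shock array. The size of that step differed between the spike-in sets, at 3.40 ± 0.66 with the spike-in and 1.63 ± 0.54 without it, and the 1 h difference from control was 3.35 and 2.47. At shock the Fst difference from control was -0.05 within the spiked set. Without control array 5 the differences from control were -0.50 after minor trauma, 0.29 at shock, 2.81 at 1 h and 2 at 4.5 h.

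Inhbc encodes the beta C subunit and, like Inhbe, is made in hepatocytes. It read 8.36, 8.44, 7.84, 8.39 and 7.77 in control, 7.82, 7.66 and 8.24 after minor trauma, 8.52, 7.99, 8.37 and 8.28 at shock, 8.46, 8.11, 8.26 and 8.14 at 1 h and 6.89, 6.84, 6.87 and 7.21 at 4.5 h. Only the 4.5 h arrays stood apart, below every other array. Inhbc was 2.31-fold below control at 4.5 h (-1.21 ± 0.16), beside 18.7% of genes below without overlap, and 2.45-fold below 1 h (-1.29 ± 0.17), where 18.5% of genes tested lay below without overlap. The differences from control in the earlier groups were -0.25 ± 0.18 after minor trauma, 0.13 ± 0.16 at shock and 0.08 ± 0.16 at 1 h, and all overlapped. Within the spike-in sets the 4.5 h difference from control was -1.55 and -0.95, and the signs at shock (-0.23 and 0.41) and 1 h (-0.23 and 0.31) were opposite. The small minor trauma difference was 0.05 with signals as deposited. The Inhbc differences without control array 5 were -0.35, 0.04, -0.01 and -1.30 in the order of the groups, and the 1 h difference thus turned sign.

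Marker lists of other liver cells differed in direction at 4.5 h, where limma called 38.9% of all genes tested. Of 6 Kupffer cell markers 5 were called lower and 1 higher by limma, with a summed signal of 825 to 1180 against 2110 to 3410 in control, and of 6 sinusoidal endothelial markers 4 were lower and 1 higher (1290 to 1420 against 1600 to 2090). Of 9 stellate cell and fibroblast markers 3 were lower, a share below that of all genes, with a summed signal of 2360 to 2400 that lay within the control range of 2280 to 3150. Of 3 biliary epithelium markers 2 were higher (82.6 to 157 against 56.8 to 77.4), and of 4 monocyte markers 2 were higher and 1 lower (489 to 901 against 421 to 1020). Hepatocyte markers, whose high rank leaves little room to differ after normalization, summed to 50300 to 52100 at 4.5 h and 51600 to 53800 in control. Their part in the Inhbc level was not tested.

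Inhba encodes the beta A subunit of activin A. It read 6.38, 6.21, 4.76, 3.95 and 6.16 in control, a range that covered the arrays of all other groups but 1, a 4.5 h array at 3.66. Group means and SD were 5.49 ± 1.08 in control, 5.80 ± 0.51 after minor trauma, 5.84 ± 0.33 at shock, 5.02 ± 0.48 at 1 h and 4.63 ± 0.74 at 4.5 h. The differences from control were 0.31 ± 0.46, 0.35 ± 0.43, -0.47 ± 0.43 and -0.86 ± 0.43 in that order, and all overlapped. Without control array 5 they were 0.48, 0.51, -0.30 and -0.69, and without control array 4 those after minor trauma and at shock turned to -0.07 and -0.04. Its second probe set, 1458291_at, lay above the array median on 1 of 20 arrays (r = -0.14 with the first) and was not kept. These arrays could not resolve a course for Inhba at this spread.

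**Figure D3:**
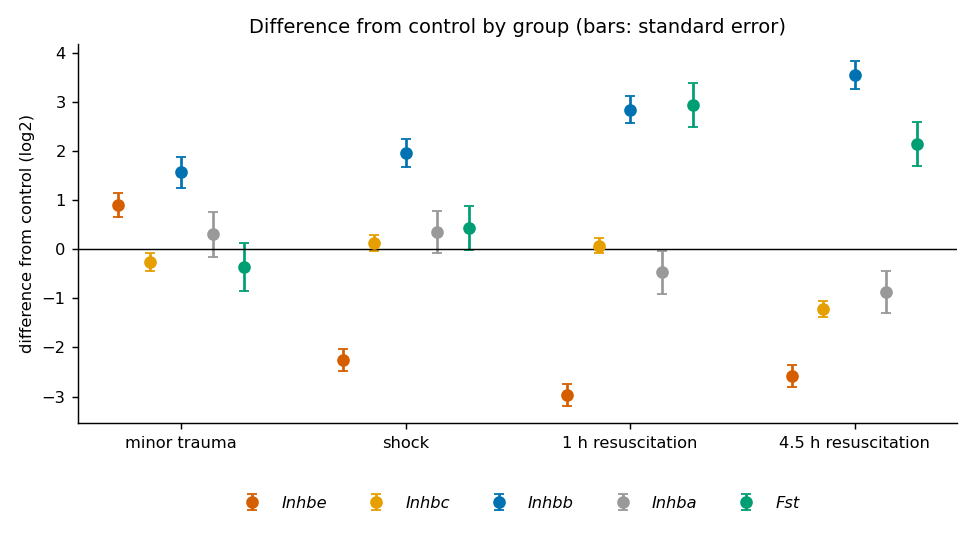
Log2 difference from control for the brightest kept probe set of each member after minor trauma, at shock and at 1 h and 4.5 h of resuscitation. Bars are the standard error from the fit. Inhbb lies above 0 in all 4 groups (1.57 to 3.56) and Inhbe below 0 in the 3 groups with shock (-2.26 to -2.97). Fst lies at -0.36 after minor trauma, 0.44 at shock and 2.95 at 1 h.

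Although Inhbe and Inhbc are neighbours, their levels had r = 0.16 over the 20 arrays. Among members, the most negative pair over the arrays was Inhbe with Fst (r = -0.78), followed by Inhbe with Inhbb (-0.69), and the most positive was Inhbb with Fst (0.64). After removing the group means, these became -0.50, 0.45 and -0.13. The 0.45 of Inhbe with Inhbb includes control array 5, the highest control for both genes (8.08 and 6.69). It was not recomputed without that array, so a turn of sign within groups was not tested. These correlations share the same arrays and are descriptive.

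The genes around Inhbe and Inhbc were chosen after the values of both were seen. Of the 6 protein-coding neighbours on each side 10 of 12 were tested, and limma called 0 of 10 at adjusted p of at most 0.05 after minor trauma, at shock and at 1 h against control, with 0, 2 and 3 at an unadjusted p under 0.05. At 4.5 h 5 of 10 were called. Ddit3, which encodes the stress factor CHOP, was higher (1.29 ± 0.24, adjusted p = 0.000178), and Dctn2 (-0.61 ± 0.13, adjusted p = 0.00092), Shmt2 (-0.55 ± 0.11, adjusted p = 0.000585), R3hdm2 (-0.40 ± 0.13, adjusted p = 0.0175) and Lrp1 (-0.39 ± 0.14, adjusted p = 0.0321) were lower. Over all genes tested 38.9% were called at 4.5 h, so 5 of 10 neighbours is near that share.

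**Figure D4:**
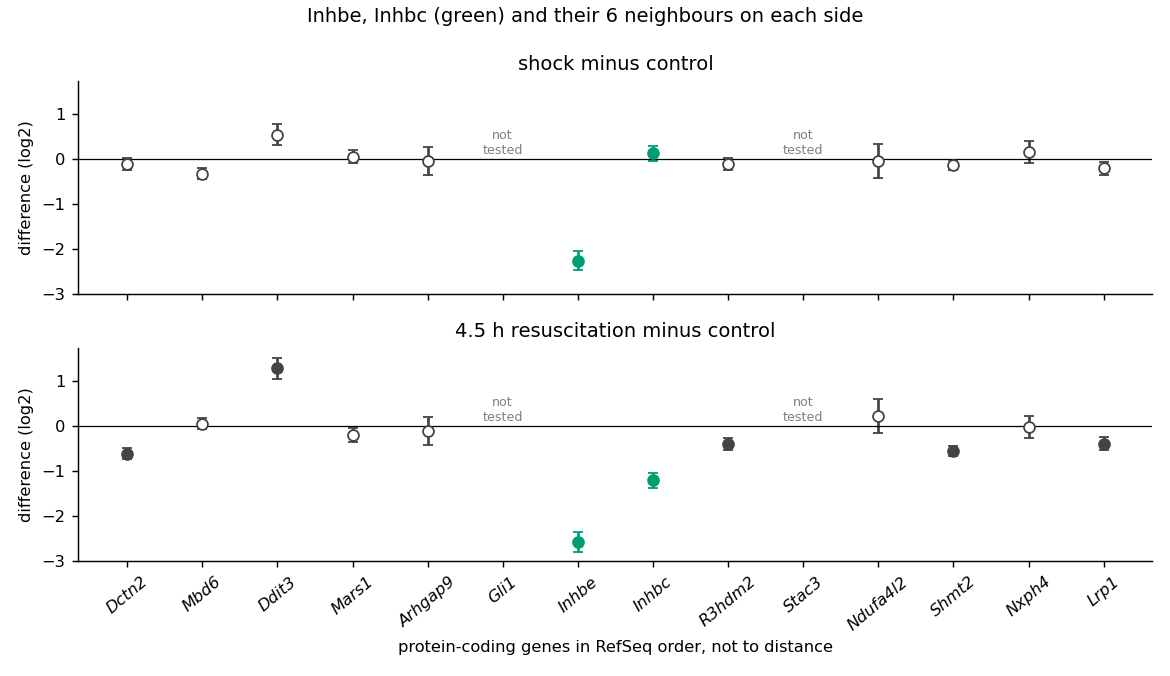
Log2 difference from control (standard error bars) at shock and at 4.5 h for Inhbe, Inhbc (green) and the 6 protein-coding genes on each side in RefSeq order, not to distance; filled grey points were called by limma. At shock Inhbe stands at -2.26 beside neighbours that were not called, and at 4.5 h Ddit3 (1.29) is the neighbour called higher.

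The genes whose levels ran most like each member over the 20 arrays were taken by Pearson r. Inhbe ran closest to the lipolysis inhibitor gene G0s2 (r = 0.94), then Fam169b (0.92), Nat8f2 (0.90), Lgals4 (0.89) and Sec23a (0.88). Inhbb ran closest to Hdc, the histidine decarboxylase gene, S100a8, Sat1 and the transcription factor gene Cebpd (each 0.96), and Pgm2 (0.95), and with the group means removed Rrm2 and Cebpd (each 0.91) and Lyve1 (0.87) led. Inhbc ran closest to Fam20a, Phlpp1 and Hjv, the hemojuvelin co-receptor gene (each 0.96), then Fam210b (0.95) and Mtarc1 (0.94). Fst ran closest to the protease gene Adamts4 (0.92), Tubb6 (0.90), Rnd1 (0.88), Bcl10 and Pnrc1 (each 0.87), and Inhba to Gata4 (0.80), Tnfsf8 (0.78) and Hao1 (0.74). Within groups the closest genes reached 0.89 for Inhbc (Marchf2), 0.86 for Fst (Phf21a), 0.87 for Inhba (Rnf144b) and 0.79 for Inhbe (Ifrd1).

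The rest of the pathway was described with 74 genes in 8 lists, of which 71 had a probe set and 62 were tested. The lists were written with earlier results of these data known, so their shares beside those of all genes are descriptive. By limma, with Benjamini-Hochberg adjustment over all genes tested, 3 genes rose and 1 fell after minor trauma (6.45% of the lists, beside 3.44% of all genes). At shock 9 were higher and 1 lower (16.1% beside 3.11%), at 1 h 12 were higher and 3 lower (24.2% beside 9.91%), and at 4.5 h 15 were higher and 13 lower (45.2% beside 38.9%). The median difference of the listed genes lay between -0.04 and 0.05 in these comparisons. At 4.5 h the lists with a share under the 38.9% of all genes were inhibitors (0%), receptors (28.6%) and other ligands (33.3%). The shares above it were 42.9% for target genes, 44.4% for Smad transducers, 61.5% for stress and hormone genes, 62.5% for feedback genes and 75% for convertases. The comparisons share the control arrays. The minor trauma count was unstable: it was 1 without control array 1, 0 without control array 2, control array 3 or minor trauma array 3, 12 without control array 5 and 10 without minor trauma array 1. At an unadjusted p under 0.05 those 3 counts of 0 were 16, 17 and 12. Within the spiked set the counts were 4, 5, 10 and 16 in the order of the groups, and within the other set 0 (8 at an unadjusted p under 0.05), 2, 8 and 20. Named genes called within both sets were Ppp1r15a and Atf3 at shock, these with Skil, Cdkn1a, Irs2 and Igfbp1 at 1 h, and Acvr1b, Smad1, Smad6, Ppm1a, Ppp1r15a, Gdf2, Ccn2, Cdkn1a, Ddit3, Atf3, Irs1 and Igfbp1 at 4.5 h. Without control array 5 the counts were 12, 13, 15 and 32, and the named genes called only then were Bmp2, Ccn2, Cdkn1a, Irs2, Nedd4l and Smad1 after minor trauma, Bmp2 at shock, Ddit3 at 1 h and Skil at 4.5 h, all higher. The 1 h call of Trib3 (0.82 ± 0.24, adjusted p = 0.0315), named after its values were seen, ended without control array 1, 2, 3 or 5 or 1 h array 1, 2 or 4 (adjusted p from 0.0529 to 0.102). Its shock call ended without control array 1, 2 or 3 or shock array 3 or 4 (adjusted p from 0.0548 to 0.108). The 1 h call of Foxo1, also named after its values were seen, ended without control array 1 or 2 or 1 h array 3 or 4 (adjusted p from 0.0685 to 0.13). With signals as deposited the 4.5 h calls of Acvr1, Furin, Pcsk6, Smad5, Zfyve9, Nedd4l, Ppp1r15a, Bmp6, Id2 and Chac1 ended, as did those of Smad5 and Tgif1 at shock and of Acvr1, Smad1 and Smad5 at 1 h. With median centring the calls of Acvr1 and Smad1 at 1 h and of Chac1 at 4.5 h ended.

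**Figure D5:**
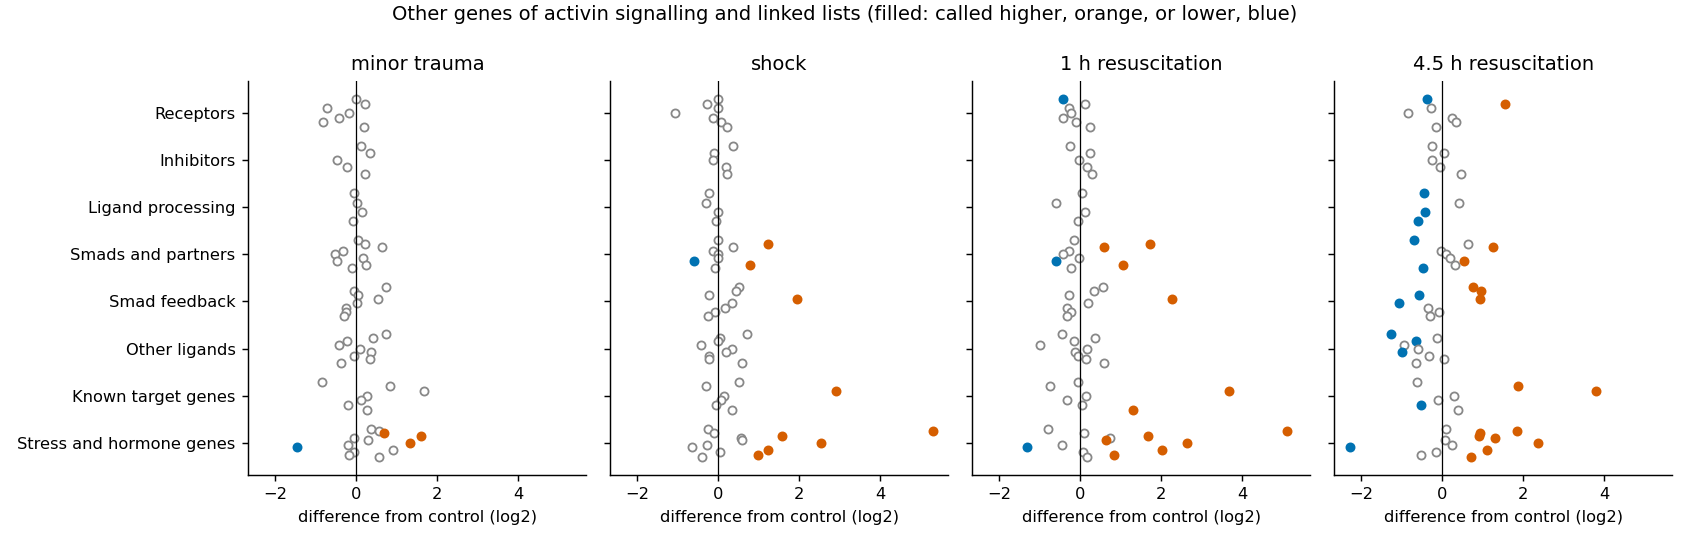
Log2 difference from control of each tested pathway gene by list (rows) and group (panels); filled points were called by limma at adjusted p of at most 0.05, orange higher and blue lower, and open points were not called. The largest differences shown include Atf3 at shock (5.30) and 1 h (5.09) and Cdkn1a at 1 h (3.67) and 4.5 h (3.79).

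Among 7 tested receptors and co-receptors, Acvr1b, the type I activin receptor ALK4, was higher at 4.5 h (1.55 ± 0.19, adjusted p = 1.77e-06), at 8.40 to 9.49 against 7.22 to 7.40 in control. That call rests on 1 probe set: with the mean of its kept probe sets the difference was 0.55 (adjusted p = 0.114). Acvr1, a type I receptor for bone morphogenetic proteins, was lower at 1 h (-0.44 ± 0.12, adjusted p = 0.0174) and 4.5 h (-0.38 ± 0.12, adjusted p = 0.0124), and without the 1 h array 2 the 1 h call ended (-0.37, adjusted p = 0.0779), as it did with the mean of its kept probe sets (-0.37, adjusted p = 0.10). The type II receptor genes Acvr2a and Acvr2b were called in no comparison with control, with Acvr2b at -1.07 ± 0.33 at shock (adjusted p = 0.0904). After minor trauma and at shock limma called 0 of the 7 receptors, with 2 and 1 at an unadjusted p under 0.05.

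Of the 5 tested inhibitors other than Fst, limma called 0 in each comparison with control, and 0 had an unadjusted p under 0.05. Inha, the inhibin alpha subunit with which beta subunits form inhibins, differed from control by 0.22 ± 0.33 after minor trauma, 0.22 ± 0.30 at shock, 0.29 ± 0.30 at 1 h and 0.45 ± 0.30 at 4.5 h (adjusted p = 0.263). The decoy receptor gene Bambi differed by -0.26 ± 0.20 at 4.5 h (adjusted p = 0.332), and Grem1, a secreted antagonist, by -0.47 ± 0.26 after minor trauma (adjusted p = 0.316). Fstl3, the follistatin relative, did not pass the filter on low levels. Of the 4 proprotein convertases that cut the subunit precursors, 3 were lower at 4.5 h: Pcsk7 (-0.61 ± 0.13, adjusted p = 0.000752), Furin (-0.46 ± 0.14, adjusted p = 0.0125) and Pcsk6 (-0.44 ± 0.12, adjusted p = 0.00597). That is 75% of a list of 4, beside 38.9% of all genes called at 4.5 h. In the other 3 comparisons with control limma called 0 of the 4, with 0, 0 and 1 at an unadjusted p under 0.05.

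Of 9 tested Smad transducers and partners, limma called 0 after minor trauma, with 4 at an unadjusted p under 0.05. Without control array 5 Smad1 was called higher there, at 0.76 (adjusted p = 0.0135). At shock 2 were higher and 1 lower, at 1 h 3 higher and 1 lower, and at 4.5 h 2 higher and 2 lower. These were 33.3%, 44.4% and 44.4% of the list, beside 3.11%, 9.91% and 38.9% of all genes. Skil, a repressor of Smad transcription, was higher at shock (1.23 ± 0.25, adjusted p = 0.00575) and at 1 h (1.72 ± 0.25, adjusted p = 6.68e-05), from 7.67 to 8.55 in control to 9.26 to 9.98 at 1 h. The corepressor gene Tgif1 was higher at shock (0.78 ± 0.19, adjusted p = 0.0199) and 1 h (1.06 ± 0.19, adjusted p = 0.000593), and its shock call ended without shock array 1 or shock array 2 (adjusted p = 0.0624 and 0.107). At 4.5 h, Smad1 was higher (1.26 ± 0.18, adjusted p = 9.62e-06), while Ski, another repressor (-0.69 ± 0.14, adjusted p = 0.000523), and Zfyve9, which brings Smads to receptors (-0.48 ± 0.14, adjusted p = 0.0102), were lower. Smad5 was lower at shock (-0.60 ± 0.16, adjusted p = 0.0429) and 1 h (-0.61 ± 0.16, adjusted p = 0.0165) and higher at 4.5 h (0.54 ± 0.16, adjusted p = 0.0113). These Smad5 calls were fragile, since the shock call ended without any 1 of 11 arrays (control 1 to 4, shock 1 to 4, 1 h 2 and 4, and 4.5 h 1; adjusted p from 0.0504 to 0.121). The 1 h call ended without the 1 h array 1 (adjusted p = 0.0685), and the 4.5 h call without the 4.5 h array 3 (adjusted p = 0.0567). With the mean of its kept probe sets Smad5 stood at -0.25 at shock (adjusted p = 0.367) and -0.18 at 1 h (adjusted p = 0.447), so both lower calls rest on its brightest probe set. Smad1 was also called higher at 1 h (0.58 ± 0.18, adjusted p = 0.0399), which ended without any 1 of 7 arrays, control 1 to 4 and 1 h 2 to 4 (adjusted p from 0.066 to 0.135).

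Feedback genes were mixed at 4.5 h, with 3 of 8 higher and 2 lower (62.5% called, beside 38.9% of all genes). Ppp1r15a, a phosphatase subunit induced by stress, was higher at shock (1.94 ± 0.18, adjusted p = 3.41e-07), 1 h (2.27 ± 0.18, adjusted p = 2.19e-08) and 4.5 h (0.92 ± 0.18, adjusted p = 0.000355). Pmepa1, which sequesters Smads (0.96 ± 0.21, adjusted p = 0.000875), and the ubiquitin ligase gene Nedd4l (0.76 ± 0.21, adjusted p = 0.00638) were higher at 4.5 h. The Nedd4l call rests on its brightest probe set: with the mean of its kept probe sets the difference was -0.09 (adjusted p = 0.768). Smad6, an inhibitory Smad (-1.07 ± 0.20, adjusted p = 0.000181), and Ppm1a, a Smad phosphatase (-0.58 ± 0.11, adjusted p = 0.000381), were lower. Smad7, the other inhibitory Smad, was not called, at -0.35 ± 0.23 at 4.5 h (adjusted p = 0.252).

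Of 9 tested ligands of the same receptors, 3 were lower at 4.5 h (33.3%, below the 38.9% of all genes called there). In each of the other 3 comparisons with control limma called 0, with 1 at an unadjusted p under 0.05. The lower genes were Bmp2 (-1.27 ± 0.23, adjusted p = 0.000192), Gdf2, which encodes BMP9 (-1.01 ± 0.20, adjusted p = 0.000331), and Bmp6 (-0.65 ± 0.23, adjusted p = 0.0289). The Bmp6 call ended without any 1 of 7 arrays, control 1 to 4 and 4.5 h 1, 3 and 4 (adjusted p from 0.0503 to 0.0974). Leaving out control array 5, limma called Bmp2 higher after minor trauma (0.86, adjusted p = 0.0349) and at shock (0.84, adjusted p = 0.0486), the opposite direction to 4.5 h; with all arrays it stood at 0.73 ± 0.26 (adjusted p = 0.107) and 0.70 ± 0.23 (adjusted p = 0.124). Bmp2 and Bmp6 are known products of sinusoidal endothelium, of whose 6 markers 4 were lower and 1 higher at 4.5 h, and the part of those cells was not tested.

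Among 7 tested genes known as targets of activin or bone morphogenetic protein signalling, Cdkn1a, the cell cycle inhibitor p21, was higher at shock (2.91 ± 0.49, adjusted p = 0.000906), 1 h (3.67 ± 0.49, adjusted p = 2.4e-05) and 4.5 h (3.79 ± 0.49, adjusted p = 3.11e-06). Ccn2, connective tissue growth factor, was higher at 4.5 h (1.86 ± 0.32, adjusted p = 9.29e-05), where its 4 arrays read 8.84 to 8.91 against 6.18 to 8.06 in control. Id3 was higher at 1 h (1.29 ± 0.22, adjusted p = 0.000364), and Id2 was lower at 4.5 h (-0.54 ± 0.19, adjusted p = 0.0279), which ended without control array 1, control array 2 or the 4.5 h array 2 (adjusted p from 0.0827 to 0.117) and with the mean of its kept probe sets (-0.43, adjusted p = 0.124). Hamp, the hepcidin gene on which activin B is known to act, was not called in any group. It differed from control by 0.27 ± 0.15, 0.15 ± 0.14, 0.15 ± 0.14 and 0.29 ± 0.14 (adjusted p = 0.309, 0.706, 0.605 and 0.0949) in the order of the groups.

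Of 13 stress and hormone genes linked to Inhbe, 3 were higher and 1 lower after minor trauma, and 5 and 0 at shock. The counts were 6 and 1 at 1 h, and 7 and 1 at 4.5 h. In that order 30.8%, 38.5%, 53.8% and 61.5% of the list were called, beside 3.44%, 3.11%, 9.91% and 38.9% of all genes tested. The list was written with earlier results of these data known, so its higher shares are a description and no independent test. Atf3 was 39.5-fold higher at shock (5.30 ± 0.24, adjusted p = 1.25e-11), 34.1-fold at 1 h (5.09 ± 0.24, adjusted p = 2.81e-11) and 3.56-fold at 4.5 h (1.83 ± 0.24, adjusted p = 4.73e-06). Igfbp1, a binding protein that insulin is known to lower, was higher at shock (2.53 ± 0.33, adjusted p = 3.95e-05), 1 h (2.62 ± 0.33, adjusted p = 1.08e-05) and 4.5 h (2.36 ± 0.33, adjusted p = 8.26e-06). Irs2, an insulin receptor substrate, was higher at those times (1.22 ± 0.26, 2.02 ± 0.26 and 1.09 ± 0.26), while Irs1 was lower at 1 h (-1.31 ± 0.30, adjusted p = 0.00633) and 4.5 h (-2.29 ± 0.30, adjusted p = 3.92e-06). Inhbe was low on all these arrays.

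In the same list, Chac1, a target of the ATF4 and CHOP pathway, was higher in all 4 groups, at 1.59 ± 0.34, 1.56 ± 0.32, 1.67 ± 0.32 and 0.90 ± 0.32 (adjusted p = 0.021, 0.00577, 0.00127 and 0.0279). Its minor trauma call ended without control array 2 or 3 or minor trauma array 3 (adjusted p from 0.0506 to 0.129), and its 4.5 h call without control array 3 or 4 or 4.5 h array 2 or 3 (adjusted p from 0.072 to 0.132). Ddit3 was called at 4.5 h as given above. After minor trauma, where Inhbe was above control, Irs1 was lower (-1.46 ± 0.33, adjusted p = 0.0229), and Igfbp1 (1.33 ± 0.36, adjusted p = 0.0449) and Atf4 (0.69 ± 0.15, adjusted p = 0.0219), the stress factor gene, were higher. Atf4 was named after its values were seen: it was also higher at 4.5 h (0.93 ± 0.14, adjusted p = 2.05e-05) and did not pass at shock (-0.10 ± 0.14) or 1 h (0.08 ± 0.14). The Irs1 call after minor trauma ended without control array 1, 2 or 3 or minor trauma array 3 (adjusted p from 0.0502 to 0.122), the Atf4 call without the same arrays (adjusted p from 0.0528 to 0.125), and the Igfbp1 call without any 1 array other than control 5 and minor trauma 1 (18 of 20, adjusted p from 0.0513 to 0.264). Asns, an amino acid synthesis gene that ATF4 is known to induce, and Pck1, the gluconeogenic enzyme, were not called in any group.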

How the data were processed

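The deposited table held 1 hybridisation intensity per probe set and array. The submitters' processing notes name MAS5, with no version, as the tool by which the authors summarised each intensity. As deposited, the intensities were not scaled between arrays, with array medians from 14 to 29.1. Per the labels, 1 ug of total RNA from whole liver was amplified from oligo dT primers. Probe sets were named from the platform annotation: 34945 had 1 gene, 932 several and 9160 none, beside 64 control probe sets; those with several or none were not used.

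Signals were taken as log2(signal + 6), quantile normalized, and fitted with limma 3.58.1 in R 4.3.3 (lmFit, eBayes with an intensity trend) over all 5 groups, in 7 comparisons, with Benjamini-Hochberg adjustment over the 12832 genes tested in each comparison and calls at 0.05. Folds are on the log2(signal + 6) scale, which understates changes of low genes. No array pair was identical. The fit was tested on simulated data. The members and gene lists were chosen with earlier results of these data known. Named pathway genes were those called in at least 1 comparison with control, up to 6 a list by size, or the 2 with the smallest p where none was called; a few list members without calls are named for their known role, after their values were seen. Genes most like a member were the 5 with the highest r over arrays. The replicate numbers in the labels did not pair the samples: 36 same-numbered pairs of arrays had a median correlation of deviations of 0 (-0.08 to 0.17). Alternatives were the scaling, pseudocount, filter, probe set choice, variance model, spike-in set, replicate block and each array left out. Protein sequences were not used here, and 1 array signal gives no count of molecules, so the number of arrays limits the precision.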

Additional observations from a re-analysis of the deposited data

Results flagged for a closer look

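In groups of 4 or 5 arrays, 12 single values stood far from the rest of their group by Dixon's criterion. They came from 156 groups examined, each of a member probe set or a named pathway gene. Chance alone would give about 7.8 at 1 in 20, and groups of different genes share arrays, so the flags are not independent. Among the members, Inhbb on probe set 1426859_at read 5.74 on the 4.5 h array 1 (others 6.21 to 6.28), Inhbc read 7.21 on the 4.5 h array 4 (others 6.84 to 6.89), and Inhbe read 4.74 on the 1 h array 1 (others 4.13 to 4.22). Control array 5 stood apart for 4 pathway genes: Skil at 8.55 (others 7.67 to 7.89), Smad1 at 8.70 (8.08 to 8.24), Tgif1 at 5.85 (6.24 to 6.35) and Bmp6 at 5.01 (5.44 to 5.57). The other flags were Furin at 8.86 on the 1 h array 4 (8.19 to 8.27), Ppp1r15a at 6.12 on control array 1 (6.36 to 6.45), Ppm1a at 10.2 on control array 4 (9.72 to 9.83), and Gdf2 at 6.78 on shock array 4 (6.98 to 7) and at 4.85 on the 4.5 h array 3 (5.95 to 6.07).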

How the results depend on the processing

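Of 1050 recomputed member differences over the alternatives, 18 changed sign (10 of Inhba, 7 of Inhbc and 1 of Fst), where the main differences lay between -0.25 and 0.44. One of them, Inhbc after minor trauma, was 0.05 with signals as deposited. Inhbe at 1 h was -3.35 with a pseudocount of 1 and -2.40 with 18, and at 4.5 h -2.14 with 18. Inhbc after minor trauma was -0.52 without control array 5 and minor trauma array 3. Within the spiked set the Inhbc difference was -0.23 at shock, -0.23 at 1 h and -1.55 at 4.5 h, and within the other set 0.41 at shock and -0.95 at 4.5 h. With the mean of kept probe sets Inhbb was 1.21 at shock, 2.11 at 1 h and 2.43 at 4.5 h. With signals as deposited the median difference of all genes from control was 0.20 after minor trauma, -0.12 at 1 h and -0.27 at 4.5 h, and with median centring 0.14 after minor trauma and -0.14 at 4.5 h. The count of pathway genes called with signals as deposited was 4 for shock against minor trauma (8 in the main analysis, 2 higher instead of 5), 0 for 1 h against shock (2 in the main analysis) and 15 for 4.5 h against 1 h (3 higher; 29 and 11 in the main analysis); with median centring it was 11 after minor trauma (10 higher) and 25 for 4.5 h against 1 h (7 higher). Within the spiked set it was 5 at shock, 16 at 4.5 h, 5 for shock against minor trauma, 0 for 1 h against shock and 9 for 4.5 h against 1 h; within the other set 0 after minor trauma, 2 at shock, 8 at 1 h, 1 for shock against minor trauma, 0 for 1 h against shock and 16 for 4.5 h against 1 h, where fewer arrays entered the fit. At an unadjusted p under 0.05 the limma counts of 0 were 5 as deposited, 10 in the spiked set, and 8 and 4 in the other set for minor trauma and for 1 h against shock. For 1 h against shock the count was 1 with no filter, 1 with no intensity trend and 4 with array weights. With 1 array left out in turn it ranged from 0 to 12 after minor trauma, 5 to 9 for shock against minor trauma and 0 to 3 for 1 h against shock; the 5 came without shock array 1, 2 or 3, and the 0 without shock array 2 or 4 or 1 h array 2 or 3 (7 or 8 at an unadjusted p under 0.05). The replicate block, for numbers that did not pair the samples, gave 10 pathway genes after minor trauma instead of 4. Without control array 5, 2187 genes instead of 940 had no overlap after minor trauma and 1709 instead of 986 at shock. The cause of these shifts was not tested.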
